A study of Mus musculus with 10 samples.

Results

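The 10 immediate early genes of the mouse heart described here were compared across the right ventricle (RV), left ventricle (LV) and ventricular septum. The genes were *Fos*, *Fosb*, *Jun*, *Junb*, *Atf3*, *Egr1*, *Egr2*, *Nr4a1*, *Ier2* and *Ier3*. They were chosen by name, through the RefSeq accession of each array probe. All 10 of the 10 genes had a probe on the array (12 probes of 56605), and 10 probes, 1 for each gene, entered the tests, out of 30234 probes and 14650 named genes tested.

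Total RNA was taken from C57BL/6N mice with no genetic change or treatment named in the labels. The animals were anaesthetised and decapitated, cold saline was perfused into both ventricles, and the pieces were frozen in liquid nitrogen. There were 4 RV, 3 LV and 3 Septum samples, each on 1 one-colour Agilent array, from different individuals for each experiment according to the series' design. The labels do not give the age of the mice, their sex or the time between death and freezing, and nothing says how many animals stand behind a sample, so p-values measure the spread between these samples. The arrays lay on 2 slides, each scanned on a single day. Slide 1 held RV, LV and Septum arrays 1 and 2, and slide 2 held RV array 3, RV array 4, LV array 3 and Septum array 3. Slide therefore cannot be told apart from the set of animals, the dissection session or the labelling of the RNA.

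Immediate early genes are transcribed within minutes of a stimulus without new protein synthesis, since the factors that switch them on (SRF with its partners, CREB and others) are already present in the cell. Many of their products are themselves transcription factors, and the messages are short-lived. In the heart they respond to stretch, adrenergic stimulation, ischaemia and handling of the tissue.

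The starts of these genes are known for binding sites of CREB/ATF factors (around TGACG) and of SRF (the CArG box, CC, then 6 A or T, then GG). RefSeq promoter windows of assembly GRCm38.p6 matched 8 of the 10 genes, with 1 window for 7 genes and 5 for *Egr2*, and *Egr1* and *Ier2* had none in the table. In the 250 bases before the start, searched on both strands, TGACG stood in 6 of the 8 genes, and in 5 of the 7 with a single window, against 17.8% of 32851 windows of the same length. The EGR motif GCGNGGGCG stood in *Fosb* and *Nr4a1* (4.7% of windows) and TATAAA in *Fos* alone (12.4%). The CArG box stood in *Egr2* alone, which had 5 windows, and in 0 of the 7 genes with a single window (1.47% of windows). Bases farther than 250 from the start were not searched, so sites there would be missed. The full CRE, TGACGTCA, which contains TGACG, and the AP-1 site TGANTCA were found in 0 of the 8 (1.55% and 6.75% of windows). A match is a string of letters and no evidence of binding. The stretches below are shown because *Fos* and *Nr4a1* varied together over the arrays that measured both, and *Atf3* and *Junb* differed between the slides. *Egr2*, which did not pass the test between slides, is shown because it alone held the CArG box in the bases searched. *Jun* and *Ier3* also differed between the slides, but their windows held none of these motifs and are not printed. They run 5′ to 3′ on the gene's strand, end at the base before the start (except *Egr2*), and carry TGACG or its complement CGTCA, the EGR motif (complement CGCCCCCGC in *Nr4a1*) and the CArG box in capitals.
Fos, chr12:85473770-85473889, plus strand: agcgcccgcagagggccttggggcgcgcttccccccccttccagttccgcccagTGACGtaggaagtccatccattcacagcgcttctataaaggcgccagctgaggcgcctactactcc
Nr4a1, chr15:101266726-101266845, plus strand: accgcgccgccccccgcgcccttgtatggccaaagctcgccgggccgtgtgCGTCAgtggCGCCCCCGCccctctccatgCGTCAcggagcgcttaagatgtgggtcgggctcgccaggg
Atf3, chr1:191183334-191183453, minus strand: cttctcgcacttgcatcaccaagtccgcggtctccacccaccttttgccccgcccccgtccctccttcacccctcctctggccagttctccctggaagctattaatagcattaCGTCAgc
Junb, chr8:84978749-84978868, minus strand: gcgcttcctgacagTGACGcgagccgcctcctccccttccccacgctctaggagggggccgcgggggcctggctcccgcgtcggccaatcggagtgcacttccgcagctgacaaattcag
Egr2, chr10:67537787-67537816, plus strand: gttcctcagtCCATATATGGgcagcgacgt

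A level is the log2 processed signal of a probe after the array's own 75th percentile was taken off, so that 0 marks the brightness at that percentile, and levels of different probes are not comparable with each other. Differences are on the same log2 scale. Each of the 10 tested probes was well above background on every array on which it was measured. *Fosb* was close to the limit of detection, its lowest margin over the dimmest signal called above background being 0.43. The second probe of *Fosb* was not well above background on any array and that of *Junb* on 4 of 10, so neither was tested. Over the whole series 53.7% to 64.0% of spots were well above background and no spot was saturated. The 12 cardiomyocyte markers were well above background on all arrays.

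**Figure D1:**
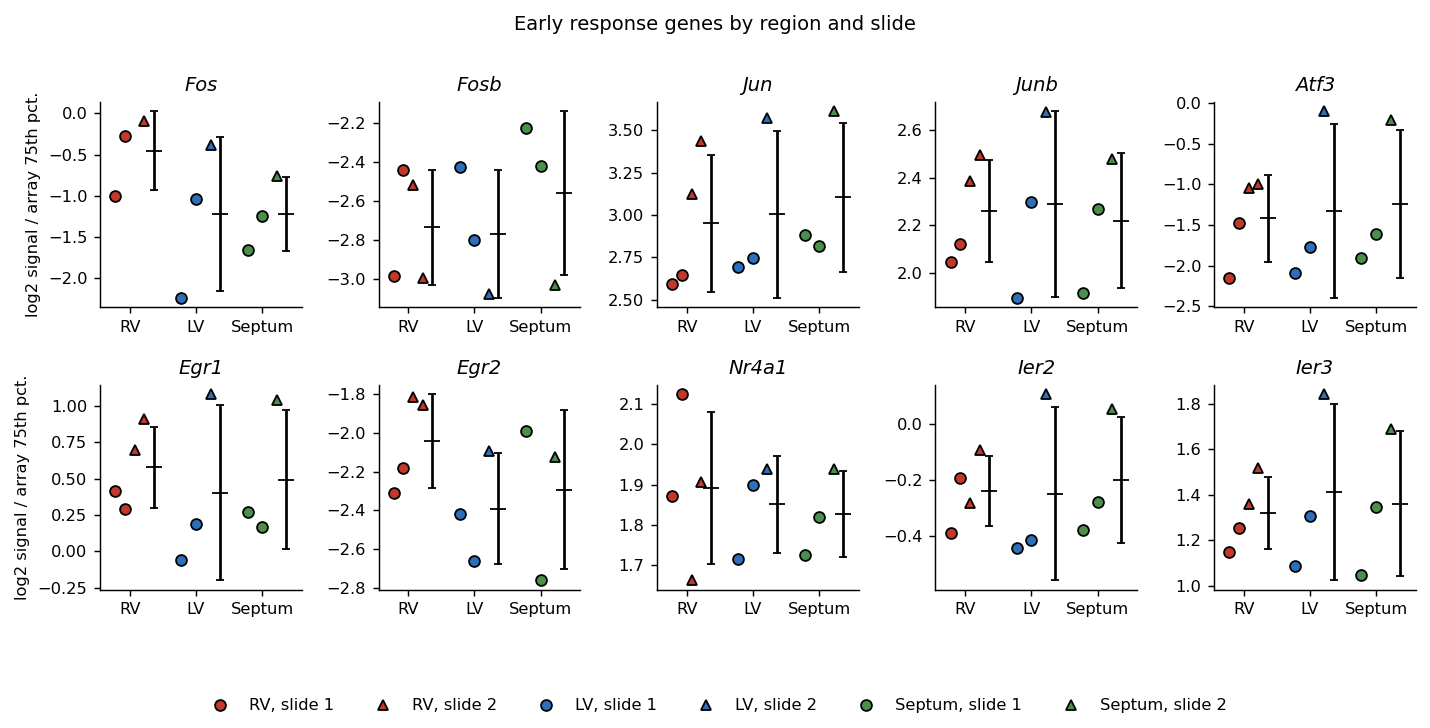
Levels of the 10 genes (log2 signal relative to the 75th percentile of the array, 1 scale per gene) in RV, LV and Septum, with 1 point per array, circles for slide 1 and triangles for slide 2, and the mean ± SD of each region beside the points. The regions overlap for each gene, whereas the triangles lie above all circles for *Jun*, *Junb*, *Egr1*, *Atf3* and *Ier3*. Of all tested probes 10.1% lay wholly higher and 16.1% wholly lower on slide 2. RV array 3 has no point for *Fos*.

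None of the 10 immediate early genes passed the test between regions, and the arrays of the regions overlapped for each of them. *Fos*, which pairs with Jun proteins to form the AP-1 factor, was the one with the widest gap. Its level was -0.997, -0.27 and -0.088 on RV arrays 1, 2 and 4, -2.24, -1.04 and -0.39 on LV arrays 1 to 3, and -1.66, -1.24 and -0.76 on Septum arrays 1 to 3. The fourth RV value is missing because the scanner software marked the *Fos* spot of RV array 3 as an outlier, and the gene was fitted without it (the authors' table gives that spot a log2 value of 6.77, against -2.23 to -0.079 on the other arrays). The group means were -0.45 ± 0.48 (SD, n = 3) in RV, -1.22 ± 0.94 (n = 3) in LV and -1.22 ± 0.45 (n = 3) in Septum.

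The difference of *Fos* was 0.77 between RV and LV (SE 0.46, 95% interval -0.28 to 1.82, limma adjusted p = 0.411) and also 0.77 between RV and Septum (SE 0.46, adjusted p = 0.517), or 1.70-fold. Taken within a title number, *Fos* was higher in RV each time. The gap was 1.24 to LV and 0.66 to Septum for number 1, and 0.77 and 0.97 for number 2. RV array 4 lay 0.30 above the LV and 0.67 above the Septum array of its slide. With the title number as a block the difference was 0.91 for both comparisons and its adjusted p was 0.053 against LV and 0.0743 against Septum, so the call did not change. In that fit RV array 4 was alone in its block and RV array 3 had no *Fos* value, so RV entered only through arrays 1 and 2. In the fit without blocks, leaving out LV array 1 lowered the difference from LV to 0.26. With the outlier spot put back it was 2.57 (adjusted p not below 0.05 in either).

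For the other AP-1 members the regions lay together. *Fosb*, a relative of Fos, had means of -2.74 ± 0.30 (SD, n = 4), -2.77 ± 0.33 (n = 3) and -2.56 ± 0.42 (n = 3) in RV, LV and Septum. *Jun*, the common partner of Fos, measured 2.59, 2.65, 3.13 and 3.44 in RV, 2.69, 2.75 and 3.57 in LV and 2.88, 2.82 and 3.61 in Septum, in the order of the array numbers. Within every region the arrays of slide 2 were the high ones, and the regions overlapped. *Jun* was lower in RV than in Septum for each title number, by 0.17 to 0.49, and with slide as a block the difference was -0.28 (adjusted p = 0.0723), which did not pass the test. *Junb*, a partner that often restrains Jun, differed by -0.029 between RV and LV and by 0.041 between RV and Septum.

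*Atf3*, a stress-induced member of the ATF/CREB family that also dimerises with Jun proteins, measured -2.15, -1.48, -1.04 and -1.0 in RV, -2.10, -1.77 and -0.099 in LV, and -1.91, -1.61 and -0.20 in Septum. The slide 2 arrays of LV and Septum were the high ones and the RV arrays of that slide lay between. RV minus LV was -0.095 (SE 0.55, adjusted p = 0.947) over all arrays, 0.12 within slide 1 (adjusted p = 0.798) and -0.92 within slide 2 (adjusted p = 0.0615), and RV minus Septum within slide 2 was -0.82 (adjusted p = 0.0871).

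The zinc finger factors *Egr1* and *Egr2*, which bind GC-rich sites and are targets of SRF, and the orphan nuclear receptor *Nr4a1* also overlapped between regions. *Egr1* had means of 0.58 ± 0.28 in RV (SD, n = 4), 0.40 ± 0.60 in LV (n = 3) and 0.49 ± 0.47 in Septum (n = 3). *Egr2* was 0.35 higher in RV than in LV (SE 0.21, adjusted p = 0.413). *Nr4a1* had the narrowest spread, from 1.66 to 2.12 over the 10 arrays, and differed by 0.040 between RV and LV, with a 95% interval of -0.22 to 0.30. *Ier2*, a nuclear early response protein, and *Ier3*, which modulates cell survival and ERK signalling, differed by 0.010 and -0.093 between RV and LV.

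By limma with Benjamini-Hochberg adjustment over all probes, 0 of the 10 genes passed between RV and LV, where 3.86% of all probes did, and 0 of 10 between RV and Septum, where 2.08% did. Septum and LV differed for 0 of 10 genes and for 0% of all probes and the test of any difference among regions called 0 of 10 against 2.78%. Of the 14650 tested genes, each by its brightest probe, 4.98% passed between RV and LV and 2.70% between RV and Septum. The share of genes was 0% for Septum and LV and 3.67% for any difference. At an unadjusted p below 0.05 the count was also 0 of 10 in each of these comparisons, against 19.8% of all probes (5992 of 30234) for RV and LV, 14.05% (4249) for RV and Septum, 2.85% (862) for Septum and LV and 15.6% (4720) for any difference. The median difference of the genes was 0.021 for RV minus LV, 0.0012 for RV minus Septum and 0.065 for Septum minus LV, beside -0.052, -0.038 and -0.019 over all genes tested. None of the 10 genes had regions that did not overlap, against 19.1% of probes for RV and LV, 13.7% for RV and Septum and 7% for Septum and LV. The count remained 0 in each of the 26 other settings tried, also with slide as a block, where the background rose to 17.6%, 8.74% and 0.0463% of probes for the 3 pairs, with the title number as a block (14.9%, 7.13% and 0%), within slide 1 (2.72%, 1.58% and 0%) and within slide 2 (1.1%, 0.563% and 0.00331%). The intervals do not exclude sizeable differences for the variable genes, the widest being those of *Atf3*, -1.23 to 1.40 for Septum minus LV, -1.32 to 1.14 for RV minus LV and -1.41 to 1.05 for RV minus Septum. These intervals come from the fit with no slide term, so differences between the slides widen them. With slide as a block *Atf3* differed by -0.31 from LV and by -0.39 from Septum (limma adjusted p = 0.400 and 0.345). No intervals were computed for that fit. In pieces of tissue, fewer cells of a type and less RNA per cell cannot be told apart.

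**Figure D2:**
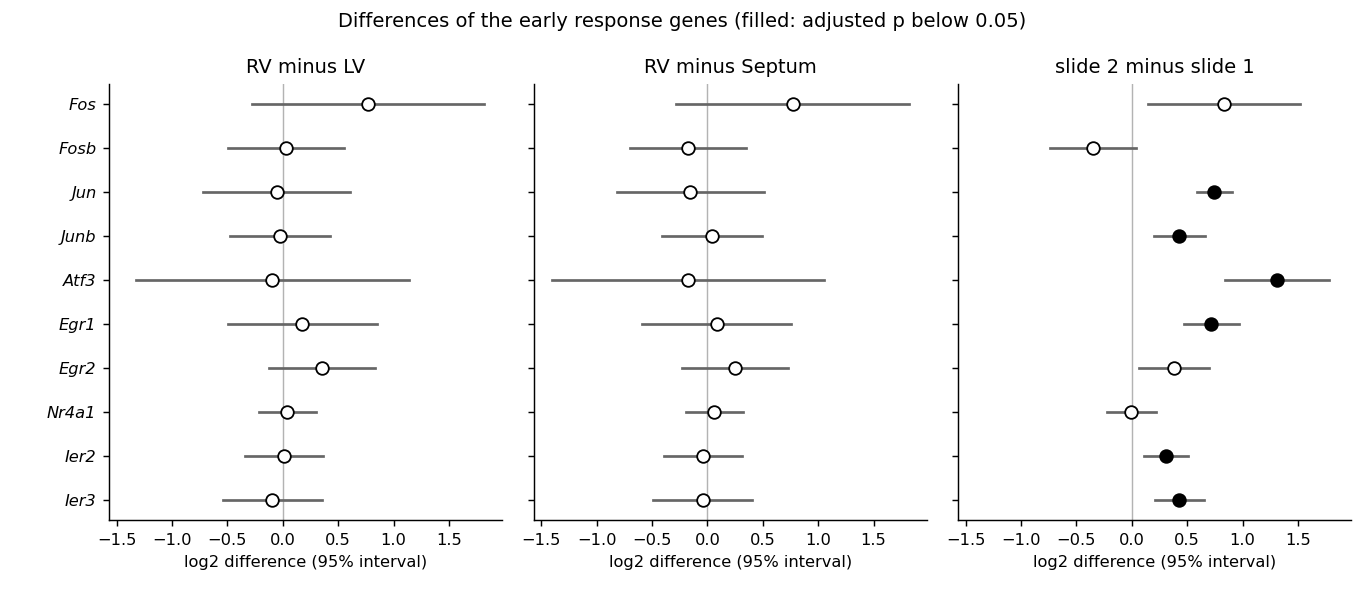
Log2 differences of the 10 genes with their 95% intervals (limma) for RV minus LV, RV minus Septum and slide 2 minus slide 1, with filled points where the adjusted p is below 0.05. The region intervals come from the fit with no slide term. No point is filled between regions, and 6 points are filled between slides, where 43.8% of all probes are called, all to the right of 0.

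Between the slides *Atf3*, *Jun*, *Egr1*, *Ier3*, *Junb* and *Ier2* were higher on slide 2, with region as a covariate. *Atf3* ran from -2.15 to -1.48 on the 6 arrays of slide 1, with a median of -1.84, and was -1.04, -1.0, -0.099 and -0.20 on RV array 3, RV array 4, LV array 3 and Septum array 3. The slides did not overlap, and the difference was 1.31 (SE 0.21, limma adjusted p = 0.0018), or 2.48-fold. It was 0.79 in RV, 1.84 in LV and 1.56 in Septum.

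*Jun* ran from 2.59 to 2.88 on slide 1 (median 2.72) and from 3.13 to 3.61 on slide 2, a difference of 0.74 (SE 0.069, adjusted p = 0.00024) that was 0.66 in RV, 0.85 in LV and 0.76 in Septum. *Egr1* ran from -0.061 to 0.42 on slide 1 (median 0.23), and its 4 values on slide 2 were 0.70, 0.91, 1.08 and 1.04. The difference was 0.72 (SE 0.11, adjusted p = 0.0015). For both genes the slides did not overlap.

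*Ier3* ran from 1.05 to 1.35 on slide 1 and from 1.36 to 1.84 on slide 2 (difference 0.43, SE 0.096, adjusted p = 0.0082), and *Junb* from 1.90 to 2.30 and from 2.39 to 2.67 (0.43, SE 0.10, adjusted p = 0.0096). In both the highest array of slide 1 lay just below the lowest of slide 2. *Ier2* overlapped, from -0.44 to -0.19 on slide 1 and from -0.28 to 0.11 on slide 2, and its difference was 0.30 (SE 0.087, adjusted p = 0.0219). The call of *Ier2* was lost without LV array 3 (0.21) and without Septum array 3 (0.27).

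The other 4 genes did not pass the test. *Fos* was 0.83 higher on slide 2 (SE 0.29, adjusted p = 0.0531), from -2.24 to -0.27 on slide 1 and -0.088, -0.39 and -0.76 on the 3 arrays of slide 2 that measured it. *Egr2* was 0.38 higher (adjusted p = 0.0556) and *Fosb* 0.35 lower (difference -0.35, adjusted p = 0.124), near its limit of detection. *Nr4a1* differed by -0.0061, with a 95% interval of -0.23 to 0.22. It ran from 1.72 to 2.12 on slide 1 and from 1.66 to 1.94 on slide 2, and its sign turned when arrays were scaled by their median (0.14).

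In all, 6 of the 10 genes were called between slides, each of them higher on slide 2. The background was large: 43.8% of all probes were called, 19.6% higher and 24.2% lower on slide 2. Of all tested genes, each by its brightest probe, 45.3% were called. This fit took the 10 arrays as independent, although same-numbered arrays deviated together and each slide held whole title numbers (1 and 2, or 3 and 4). With the title number added as a random block, a fit chosen after seeing the data, the estimated correlation was 0.088 and the 6 genes were called again, with adjusted p-values of 0.00046 for *Jun*, 0.0029 for *Egr1*, 0.0030 for *Atf3*, 0.0126 for *Ier3*, 0.0128 for *Junb* and 0.0347 for *Ier2*, where 39.7% of all probes were called. Scaled by the median of each array, which moved the median slide difference of all probes from -0.019 to 0.13, 37.6% of probes were called higher, and 78.0% of the calls were then higher against 44.8% here. The slides did not overlap for 5 of the 10 genes, all higher on slide 2, which 10.1% of probes were (16.1% lay wholly lower). The median slide difference of the 10 genes was 0.43, beside 0.0014 over all genes. Among the 14650 genes ranked by that difference, *Atf3* lay at the 99.8th percentile, *Fos* at the 99th, *Jun* at the 98.6th and *Egr1* at the 98.4th, whereas *Nr4a1* lay at the 48.9th and *Fosb* at the 11.4th. The direction was the same in RV, LV and Septum for 8 genes that were higher on slide 2 and for *Fosb*, which was lower, though by only -0.039 in RV. The share of all probes with the same direction in every region was not counted. No gene passed the test of a slide difference that varies with region (interaction by limma, 0 of 10 against 0.175% of probes). *Egr1* had the smallest unadjusted p, 0.0492, with an adjusted p of 0.606, and was the only gene of the 10 below 0.05, as 8.20% of probes were (2478 of 30223). The calls of *Jun*, *Junb*, *Egr1*, *Atf3* and *Ier3* remained in each of 22 other settings, single arrays left out included.

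Title numbers 1 and 2 each held 1 array of every region on slide 1, and so could be compared within that slide. No gene was called (0 of 10, against 0.00331% of probes, which is 1 probe), and 2 of 10 had an unadjusted p below 0.05, as 13.8% of probes did (4171 of 30234). *Fos* measured -0.997 in RV array 1 and -0.27 in RV array 2, -2.24 and -1.04 in LV arrays 1 and 2, and -1.66 and -1.24 in Septum arrays 1 and 2, so that number 2 was the higher in each region. The difference, 0.78 (SE 0.19), was of the size seen between the slides but had an adjusted p of 0.257. *Junb* differed by 0.28 (SE 0.090, adjusted p = 0.306) and *Atf3* by 0.43 (SE 0.22, adjusted p = 0.444), whereas *Jun* and *Egr1*, which differed between slides, were 0.014 and 0.0069 apart.

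*Fos* and *Nr4a1* varied together over the arrays that measured both, most closely within slide 1. Over the 9 arrays that measured both, Pearson's r was 0.838 (exact permutation p = 0.00524, two-sided, adjusted p = 0.0472 over 9 relations) and Spearman's rho 0.883 (exact permutation p = 0.00308, adjusted p = 0.0277). Without the 2 arrays farthest from the median of *Fos* r was 0.923, and within the 6 arrays of slide 1 it was 0.940 (exact permutation p = 0.00278). On those 6 arrays *Fos* and *Nr4a1* were both highest in RV array 2 and lowest in LV array 1. Both were also higher in title number 2 than in number 1 in each region. The permutation took arrays as exchangeable, although same-numbered arrays deviated together. Its p-values may therefore be too small, and the p within slide 1 was not adjusted for the 9 relations. On slide 2 only 3 arrays measured *Fos*, too few for a correlation. RV array 4, LV array 3 and Septum array 3 had -0.088, -0.39 and -0.76 for *Fos* and 1.91, 1.94 and 1.94 for *Nr4a1*. *Nr4a1* did not rise with *Fos* among them. RV array 3, whose flagged *Fos* spot has a log2 value of 6.77 in the authors' table, had the lowest *Nr4a1* of all arrays (1.66). The relations of *Fos* with the other 8 genes had adjusted p-values of 0.0797 or more for r and 0.0755 or more for rho, and did not pass. *Fosb* ran the other way, with r -0.607 and rho -0.700 (exact permutation p = 0.0433, adjusted p = 0.0755), and r -0.335 within slide 1. Among the rest r was 0.731 for *Junb* (0.573 within slide 1), 0.711 for *Egr1* (0.692) and 0.620 for *Atf3* (0.647), and for *Jun* it was 0.499 over both slides and -0.390 within slide 1.

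**Figure D3:**
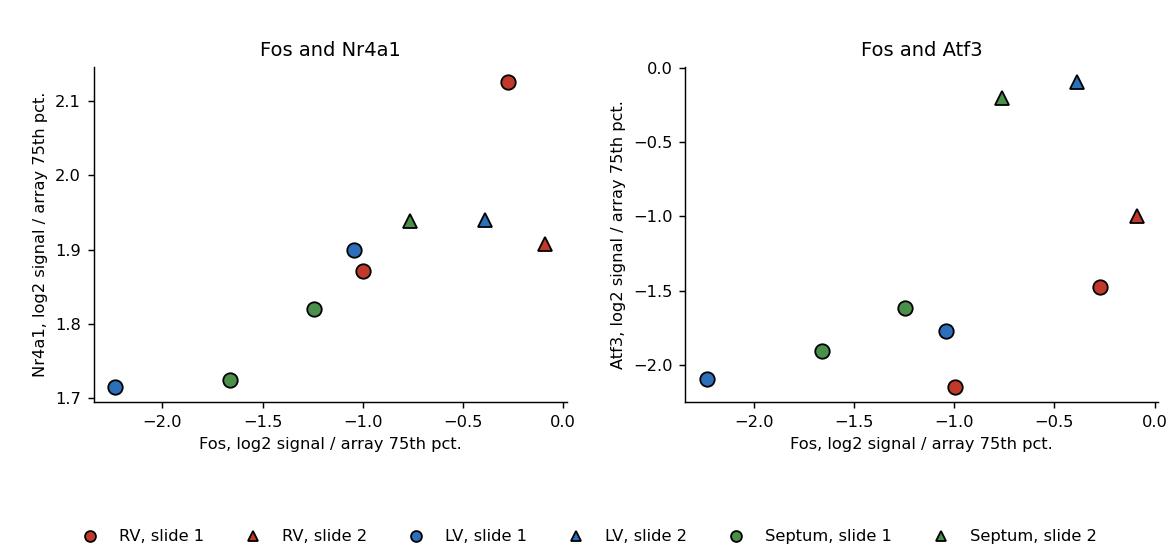
Level of *Nr4a1* (left) and *Atf3* (right) against that of *Fos* on the 9 arrays that measured *Fos* (log2 signal relative to the 75th percentile of the array), coloured by region, with circles for slide 1 and triangles for slide 2. *Nr4a1* rises with *Fos* over the 9 arrays together (r 0.838) but not among the triangles alone, and for *Atf3* the triangles lie above all circles.

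Relatives of the 10 genes and the genes around them were counted in the same way, to be read against the 19.6% of all probes that were called higher and the 24.2% called lower on slide 2. Of 11 tested relatives in the AP-1, EGR and NR4A families, 8 were higher and 2 lower on slide 2 (median 0.35), and 0 differed between regions. *Jund*, the Jun protein beside Jun and JunB, was 0.80 higher (SE 0.11, adjusted p = 0.00094), from 3.60 to 3.92 on slide 1 and from 4.27 to 4.81 on slide 2. *Mafk*, a small Maf partner of bZIP factors, was 0.63 higher, and *Nr4a2*, the close relative of *Nr4a1*, 0.41 higher (SE 0.084, adjusted p = 0.0052). *Fosl1*, *Egr3* and *Egr4* were not tested because they were too dim.

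Feedback regulators, which end the early response by removing phosphates or decaying its messages, were higher on slide 2 for 6 of 20 and lower for 1 (median 0.18). Of all probes 19.6% were higher and 24.2% lower. *Spry4*, an inhibitor of receptor tyrosine kinase signalling, was 0.81 higher and *Btg2*, an antiproliferative gene, 0.67 higher, though not called without LV array 3 (0.53). *Zfp36l1*, a decay factor for AU-rich messages, was lower by its brightest probe (difference -0.28), but not called with median scaling (-0.13), and with its probes averaged the sign turned (0.11, adjusted p = 0.167). Of 35 other early response genes 17 were higher and 5 lower (median 0.23). *Ier5* was 0.95 higher (SE 0.10, adjusted p = 0.00043), *Ccn2*, a matrix protein induced by TGF-beta and stretch, 0.76 higher and *Phlda1* 0.74 higher, whereas *Cebpd*, an acute-phase C/EBP factor, was lower by as much (-0.84, SE 0.055, adjusted p = 0.0001).

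Of 24 upstream factors 12 were higher and 0 lower (median 0.16), where 19.6% of all probes were higher and 24.2% lower. The differences were small, such as 0.38 for *Srf*, 0.39 for its coactivator *Mrtfa* and 0.31 for *Atf1*. The call of *Srf* was lost with no term for region (adjusted p = 0.077). Of 9 inflammatory early genes 0 were higher and 2, *Tnf* and *Vcam1*, lower (differences -0.17 and -0.23), while *Il6*, *Ccl3*, *Cxcl2*, *Sele* and *Lif* were too dim to test. The call of *Vcam1* held in 5 of 10 fits that left out an array, and was lost with the title number as a random block (adjusted p = 0.0522), with no term for region and, like that of *Tnf*, with no filter and with median scaling. *Tnf* also lost its call with normexp. Scaling by the median, with 37.6% of all probes then called higher, gave higher calls for 8 of 11 relatives, 13 of 20 feedback regulators, 22 of 35 other early genes, 19 of 24 upstream factors and 2 of 9 inflammatory genes, and left no lower call in these lists but for 2 of the other early genes.

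Heat shock genes, whose products refold damaged proteins, were higher on slide 2 for 9 of 17 and lower for 1 (median 0.29), beside 19.6% and 24.2% of all probes. With median scaling they were higher for 14 and lower for 0 of 17, where 37.6% of all probes were higher. *Hspa1a*, the inducible Hsp70, ran from -0.59 to 0.052 on slide 1 and from 0.96 to 1.29 on slide 2, a difference of 1.42 (SE 0.12, adjusted p = 0.00021) or 2.68-fold. *Hspa1b* was 0.84 higher (SE 0.068, adjusted p = 0.00017) and *Dnaja1*, an Hsp70 co-chaperone, 0.54 higher. *Hspa1a* and *Hspa1b* are near-identical copies, and their probes may share signal.

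**Figure D4:**
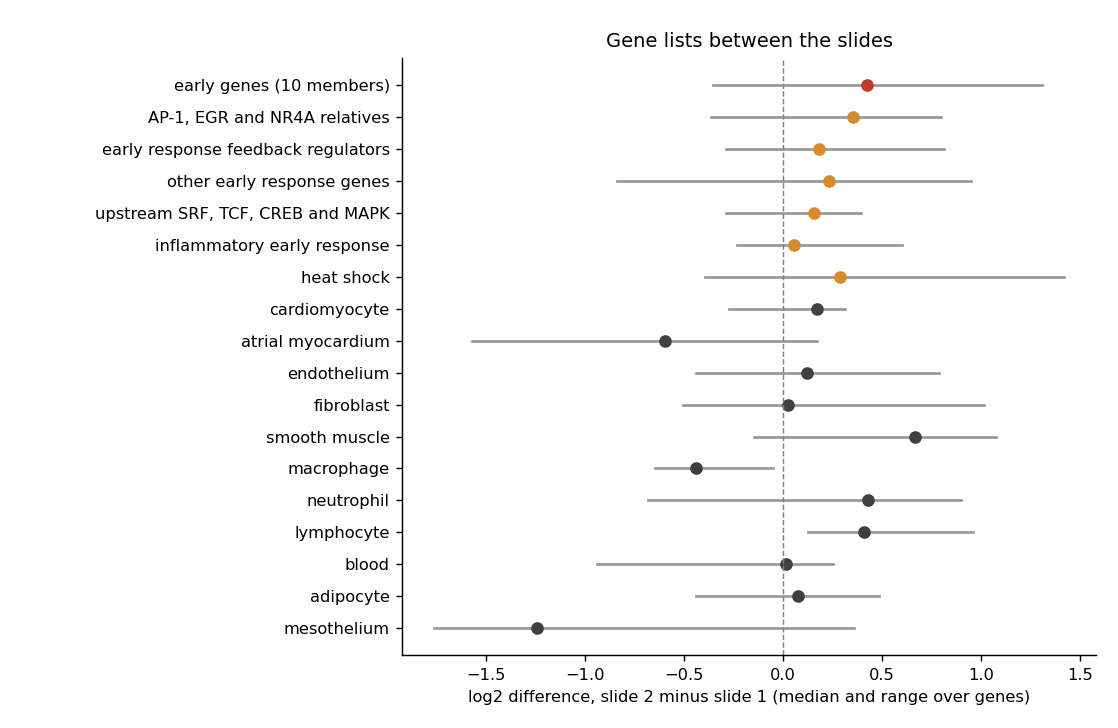
Slide 2 minus slide 1 (log2) for the 10 immediate early genes (red), 6 lists of related and responding genes (orange) and 11 cell type marker lists (dark), with the median over the tested genes of a list as a point and the range from lowest to highest as a line; the dashed line is the median of all genes. The median is 0.43 for the 10 genes. It is 0.67 for smooth muscle, 0.43 for neutrophil and 0.41 for lymphocyte markers. It is -0.44 for macrophage, -0.60 for atrial and -1.24 for mesothelium markers.

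Markers of other cell types were counted between the slides against the same background, and their part in the differences of the early genes was not tested. Of 9 macrophage markers 0 were higher and 5 lower on slide 2 (median -0.44), with a summed level of 45 to 61.2 times the array's 75th percentile on slide 1 and 35.4 to 56.5 on slide 2. Of 8 mesothelium markers 5 were lower (median -1.24), summing to 1.95 to 23.3 and to 1.48 to 15.8. Of 12 cardiomyocyte markers 7 were higher and 1 lower (median 0.18), with sums of 4718 to 5340 and 5139 to 5910. Smooth muscle markers were higher for 3 of 7 (median 0.67), fibroblast markers for 3 of 10 (0.026) and lymphocyte markers for 2 of 6 (0.41), with none lower. Endothelium markers were higher for 4 and lower for 1 of 10 (median 0.12). Neutrophil markers were so for 2 and 1 of 5 (0.43), and adipocyte markers for 2 and 0 of 9 (0.075). Blood markers were lower for 2 of 6 (median 0.018) and atrial markers were called for 0 of 6 (-0.60).

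Between regions, 2 genes of the 6 related lists were called, *Thbs1* of 35 tested other early response genes and *Vcam1* of 9 inflammatory genes. No gene was called among 11 relatives, 20 feedback regulators, 24 upstream factors and 17 heat shock genes. Both calls were higher in RV than in LV, as 2.31% of all probes were. *Thbs1* and *Vcam1* are named because they were the only region calls, after their values were seen (*Vcam1* also by the rule for the lists). *Thbs1*, a stretch- and injury-induced matrix protein, was -0.46, -0.40, 0.90 and 0.043 on RV arrays 1 to 4. On LV arrays 1 to 3 it was -2.35, -1.64 and -1.73, without overlap. On Septum arrays 1 to 3 it was 0.070, -1.09 and 0.50, overlapping RV and above each LV array, so LV was the low region. The RV minus LV difference was 1.93 (SE 0.42, adjusted p = 0.0396). *Thbs1* was not called between Septum and LV (difference 1.73) or between RV and Septum. *Vcam1*, an adhesion molecule, was 0.60 higher (SE 0.13, adjusted p = 0.0349). *Thbs1* was not called without any 1 of RV arrays 1 to 4, LV arrays 1 to 3 or Septum array 1, and *Vcam1* was not called without any 1 of RV arrays 1 to 4, LV array 1, LV array 3 or Septum array 2. The differences without 1 array were 1.63 to 2.09 and 0.49 to 0.71. *Thbs1* and *Vcam1* also lost their calls with no filter (adjusted p = 0.138 and 0.144), within slide 1 (0.110 and 0.0753), within slide 2 (0.100 and 0.0903) and by analysis of variance with Tukey's correction (0.147 and 0.102), *Thbs1* with median scaling (0.0664) and *Vcam1* with its probes averaged (0.0852). Both were called with the title number as a block (adjusted p = 0.0262 and 0.0173) and with slide as a block (0.0098 and 0.0033).

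Several lists of cell type markers also lay higher in RV than in LV, where 2.31% of all probes were called higher. Their part in the differences of *Thbs1* and *Vcam1* was not tested. All 10 fibroblast markers had a higher mean in RV (3 called, median 0.66), with summed levels of 372 to 447 times the array's 75th percentile in RV and 243 to 297 in LV. The 9 macrophage markers also had higher means (0 called, median 0.31), summing to 54.7 to 61.2 and to 39.0 to 51.4. So did the 8 mesothelium markers (0 called, median 1.84), summing to 8.14 to 23.3 and to 4.64 to 7.57. Smooth muscle markers had a median of 0.59 (5 of 7 higher, 0 called) and adipocyte markers of 0.14 (5 of 9 higher, 4 called). Endothelium (5 of 10 higher, 1 called), atrial (3 of 6), neutrophil (3 of 5) and lymphocyte markers (4 of 6) had medians of -0.041, 0.094, 0.016 and 0.066. Cardiomyocyte (1 of 12 higher) and blood markers (1 of 6) lay lower, with medians of -0.13 and -0.17.

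By Pearson correlation over the 10 arrays with the mean centred level of the 10 genes, the most alike of 13625 genes were *Zfp746* (0.988), *Oprl1* (0.984), *Lgals9* (0.981), *Mon2* (0.975), *Aldh3a1* (0.971), *Plod3* (0.971), *Stau1* (0.968) and *Adcy4* (0.965). The points share the slide, and each of the 8 was itself called higher on slide 2, by 0.26 to 0.66. Within slide 1 the correlations were 0.842 to 0.969. They are given as a description, with no test. The mean centred level itself ran from -0.38 in LV array 1 to 0.032 in RV array 2 on slide 1, and from 0.12 in RV array 3 to 0.40 in LV array 3 on slide 2. The mean of RV array 3 left out *Fos*, which had no value there, so it rests on a different set of genes than the other arrays.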

How the data were processed

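The authors made the intensity values of each array with Agilent Feature Extraction, version 11.5.1.1 in the headers, which subtracts background and marks outlier spots and spots well above background. A log2 table from GeneSpring was deposited too. It lay within 0.05 of the values used here for 100% of probes after a constant per array was removed, and served as an alternative. Signals of RV array 1 were rounded in its file. Controls were dropped, as were 56 to 128 outlier spots on each array, spots of a probe averaged, log2 taken and the 75th percentile of the array subtracted. A probe was tested if all arrays of 1 region or more showed it well above background (30234 of 56605, of which 27227 on all arrays), with the brightest probe per gene shown. Accessions were named through a RefSeq table of assembly GRCm38.p6 (32994 probes, 22911 genes); the array files name an older build, so no probe coordinates are given.

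Groups came from the sample titles. limma (version 3.58.1, R 4.3.3) fitted the 3 regions, region with slide, or region with title number, called at an adjusted p below 0.05 over all probes, and was tested on simulated data. The number of arrays limits the precision. Same-numbered arrays deviated together (9 pairs, r 0.36 to 0.64). Across slides r was -0.56 to -0.21, and for another number of the same slide 0.091 to 0.58. For LV array 3 and Septum array 3, r was 0.43 and 0.44 with RV array 3. It was higher with RV array 4, at 0.57 and 0.58, so the number did not always mark the closest arrays. The main fits between regions and between slides took no pairs. The title number entered as a block only in alternative fits. Correlations used exact permutation (scipy 1.17.1). The 10 genes and the lists were chosen with earlier results of these data known, so no count over them is independent support. Of each related list, up to 6 called genes with the lowest adjusted p could be named. Alternatives were other scalings, background correction (normexp on the median signals, offset 50), filters, blocks, array weights, the mean of a gene's probes, analysis of variance with Tukey's correction, single arrays left out and, chosen after seeing the data, outlier spots put back and the title number as a random block in the slide fit.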

Additional observations from a re-analysis of the deposited data

How the results depend on the processing

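The count of immediate early genes called was 0 between regions and between title numbers in each setting, and 5 to 9 between slides (5 to 7 with 1 array left out). Within slide 2, and with the filter for probes well above background on all arrays, *Fos* was not fitted, which left 9 genes. Counts over all probes moved more. RV minus LV called 1167, but 684 with median scaling, 269 with no filter, 5331 with slide as a block, 4511 with the replicate block, 5792 with it as a random term, 331 within slide 2, 4020 with array weights, 775 by analysis of variance, and 390 to 980 with 1 array left out. RV minus Septum called 628, but 112 with no filter, 2643 with slide as a block, 2155 with the replicate block, 3186 as a random term, 170 within slide 2, 1772 with array weights and 118 to 542 with 1 array left out. Septum minus LV called 0, but 2 with quantile normalization, 3 with normexp, 14 with slide as a block, 69 with the random term, 1 within slide 2, 17 with array weights, 3 with gene means, 167 by analysis of variance and 0 to 3 with 1 array left out. The test of any difference called 842, but 178 with no filter, 3826 with slide as a block, 2671 with the replicate block, 4499 as a random term, 354 within slide 1, 275 within slide 2, 2988 with array weights and 298 to 706 with 1 array left out. The slide comparison called 13240 probes, 6711 genes when probes were averaged per gene, and 10056 to 12777 with 1 array left out. Title number 2 minus 1 called 1 probe, but 4 with median scaling, 27 with normexp, 17 among probes detected on all arrays, 2 with array weights, 0 with no filter, no region term or gene means, and 0 to 5 with 1 array left out. The replicate block, fixed or random, changed no call of the 10 genes between regions, nor did the random block between slides, where it called 11994 probes.

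Uncalled differences near 0 turned in sign, and the cause was not tested. *Jun* RV minus LV was 0.021 with quantile normalization, 0.00049 with the percentile of detected probes and -0.22 to 0.23 with 1 array left out. *Atf3* RV minus LV was 0.12 within slide 1, 0.052 with array weights and -0.48 to 0.52 with 1 array left out, and Septum minus LV was -0.033 with normexp, -0.11 within slide 2 and -0.44 to 0.69. *Fos* Septum minus LV was 0.021 with the percentile of detected probes, 0.19 within slide 1 and -0.51 to 0.42. RV minus Septum ran from -0.51 to 0.34 for *Atf3* and from -0.32 to 0.10 for *Jun* with 1 array left out. *Nr4a1* between slides was 0.14 with median scaling, 0.044 with array weights, 0.0028 with no region term and -0.075 to 0.071 with 1 array left out. Within slide 2 the median RV minus LV difference was -0.28 over 9 genes, without *Fos*, which had no value on RV array 3. *Fos* became a slide call with median scaling, normexp or array weights, *Egr2* also with quantile normalization and the stricter filter, and *Fosb* with array weights, whereas *Ier2* lost its call with no filter. Counting fits with 1 array left out, *Fos* was called in 6 of 21 alternatives, *Egr2* in 6 of 22 and *Fosb*, as lower, in 3 of 22. With outlier spots put back, *Fos* was 2.57 higher in RV than in either region and 2.26 higher on slide 2. No depth per probe is known beyond signal over background, which limits *Fosb* and *Egr2* most.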
